A study of Homo sapiens with 17 samples.

Results

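The subject here is binding near 8 regulator genes of the definitive endoderm and gut: EOMES, SOX17, GATA4, GATA6, CER1, HHEX, PDX1 and ONECUT1. A peak was assigned to a gene when its summit lay within 100 kb of the gene's RefSeq span, on GRCh38. All 8 genes were found among 19970 protein-coding genes on chromosomes 1 to 22 and X. Together they took 113 of the 208775 peaks in 8 lists. The data are Flag ChIP-seq peak lists from U2OS, a human osteosarcoma cell line that is not of endodermal origin. Stable lines expressed 1 Flag-tagged factor each from a Tet-on construct, switched on for 4 days with doxycycline at 500 ng/ml per the treatment labels (the extraction protocol gives the same number per µl), and were grown in DMEM with serum. The factors were FOXA1, FOXA2 and FOXA3 at full length, each of these with its CTD deleted, SOX2 at full length, and SOX2 fused to the CTD of FOXA2. Each of the 8 groups had 2 biological replicates and 1 list of peaks combined from both, and there was 1 input sample. Whether a line was 1 clone or a pool is not given in the sources used here. The series holds binding data only, so whether the 8 genes were expressed in these cells was not measured here.

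The definitive endoderm is the embryonic layer that forms the lining of the gut and the liver and pancreas. Nodal signalling induces it through T-box, SOX and GATA factors. FOXA proteins are forkhead pioneer factors: they can bind their sites in closed chromatin, and in the gut tube they act before the liver and pancreas programmes switch on. SOX2 is a pioneer factor of the SOX family, known for pluripotent cells and, in the gut tube, for its anterior part.

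The lists were not cut at the same limit, and this touches every comparison of numbers below. IDR, the irreproducible discovery rate, measures how well a peak's rank agrees between replicates, and lower is better. For FOXA1 the weakest peak had an IDR of 0.200 at full length and 0.0501 without the CTD. The corresponding limits were 0.351 and 0.25 for FOXA2, 0.100 and 0.01 for FOXA3, and 0.100 and 0.920 for SOX2 and the fusion. The FOXA3 full-length list also shares 5012 of its 6130 rows with the CTD-deleted list, identical in position and in every value. All 3 FOXA3 full-length peaks near the 8 genes were among those rows, so with them left out this list held 0 peaks there. Library depth is unknown. There is 1 list per group, so no test between groups was possible, and the intervals given (exact binomial, 95%) cover counting error over peaks only.

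FOXA1 and FOXA2 peaks were present near almost every one of the 8 genes, FOXA3 peaks near 3 of them, and SOX2 peaks near none. The FOXA1 full-length list held 21 peaks at 7 of the 8 genes, CER1 being the exception, while 83.4% of all protein-coding genes had such a peak. After CTD deletion FOXA1 had 30 peaks at 8 of 8 genes, against 82.2% of all genes. Intact FOXA2 had 22 peaks and the deleted form 31, at 8 of 8 genes in both lists, against 85.0% and 86.4% of all genes. Both FOXA3 lists reached SOX17, GATA6 and ONECUT1 only, with 3 peaks at full length and 4 after deletion, while 34.7% and 38.9% of all genes had a FOXA3 peak. SOX2 had 0 peaks at the 8 genes (1.46% of all genes had one), a count of 0 that allows a share of up to 0.220% of its 1365 peaks on these chromosomes by the limit of 3 counts, and 0.270% by the exact interval. The fusion had 2 peaks, both at GATA6, against 35.5% of all genes with a fusion peak. A peak in all 4 FOXA1 and FOXA2 lists was found at 7 of the 8 genes and at 70.6% of all genes. With 8 genes these counts are close to the background: most protein-coding genes had a FOXA1 or FOXA2 peak in such a window. The median number of peaks per gene was 2 for the 8 genes and 3 for all genes with intact FOXA1, and 3 and 3 with its CTD deleted. For FOXA2 the medians were 2.5 and 3 in both lists. Per 100 kb of window the 8 genes had 1.18 peaks against 1.28 for all genes with intact FOXA1, and 1.69 against 1.43 with its CTD deleted. For FOXA2 these were 1.24 against 1.53 at full length, and 1.74 against 1.72 after deletion.

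**Figure D1:**
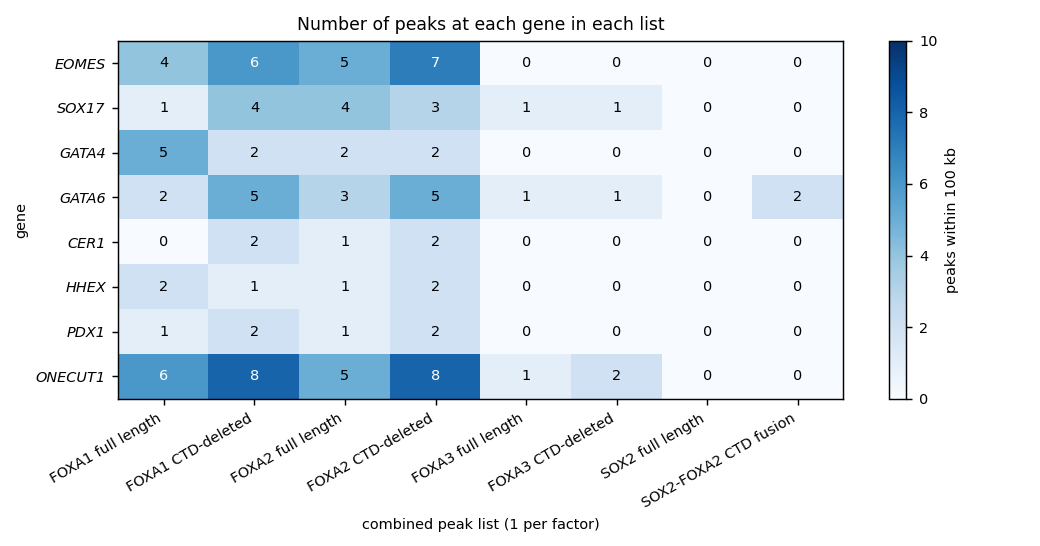
Number of peaks with a summit within 100 kb of each of the 8 genes (rows) in each of the 8 combined lists (columns). Counts are highest at ONECUT1 and EOMES, with 8 and 7 in the FOXA2 CTD-deleted list, and the SOX2 column is 0 throughout.

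The genes differed widely among themselves in number of peaks. These numbers are not scaled by window length, which ran from 203 kb at SOX17 to 283.1 kb at GATA4. Summed over the 8 lists, ONECUT1 had 30 peaks, a number reached or exceeded by 16.8% of protein-coding genes. EOMES had 22 peaks (29.1% of genes had as many or more), GATA6 had 19 (35.6%), SOX17 had 14 (49.8%) and GATA4 had 11 (59.0%). HHEX and PDX1 had 6 each (76.4%), and CER1 had the fewest with 5 (79.99%). The median was 12.5 for the 8 genes and 13 for all. When overlapping peaks of different lists were merged, the 113 peaks formed 52 sites, of which 26 were held by 1 list and 11 by 4 or more. Over the whole genome 54.4% of merged sites were held by 1 list and 12.1% by 4 or more. All 4 FOXA1 and FOXA2 lists held 9 of the 52 sites, against 8.71% of all merged sites. FOXA1 and FOXA2, in either form, met at 23 of the 52, against 33.9% of all.

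Sites were also placed relative to the ends of the gene spans. At none of the 8 genes (0 of 8) did any of the 8 combined lists place a summit closer than 1 kb to a span end, while 26.0% of all protein-coding genes had one. With 8 genes, this count of 0 cannot be called lower than that share. Of the 52 sites, 7 lay within a gene of the 8, namely in GATA4, GATA6 and ONECUT1, so 3 of 8 genes held a summit, against 51.9% of all genes. These 3 genes are the longest of the 8, at 83.1, 32.9 and 35.3 kb, and the others span 3 to 6.8 kb. The 51.9% covers genes of any length and was not matched to these spans, so the 3 of 8 cannot be called low. The peaks of the fusion in its first replicate alone do include a summit inside GATA6 closer than 1 kb to its end. The other 45 sites lay between 2.6 and 99.8 kb from the span, with a median of 45.3 kb. For 21 of the 52 sites another protein-coding gene was nearer than the one it was assigned to, so assignment by distance does not say which gene a site serves. The gene table gives no exons, so whether a site within a gene is exonic or intronic was not determined. The farthest peaks included were 99.8 kb from ONECUT1, in both CTD-deleted lists, with a lower −log10 p of 2.93 and 3.96. The nearest left out were 100.7 kb from CER1, also in both CTD-deleted lists, with 4.44 and 3.57.

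**Figure D2:**
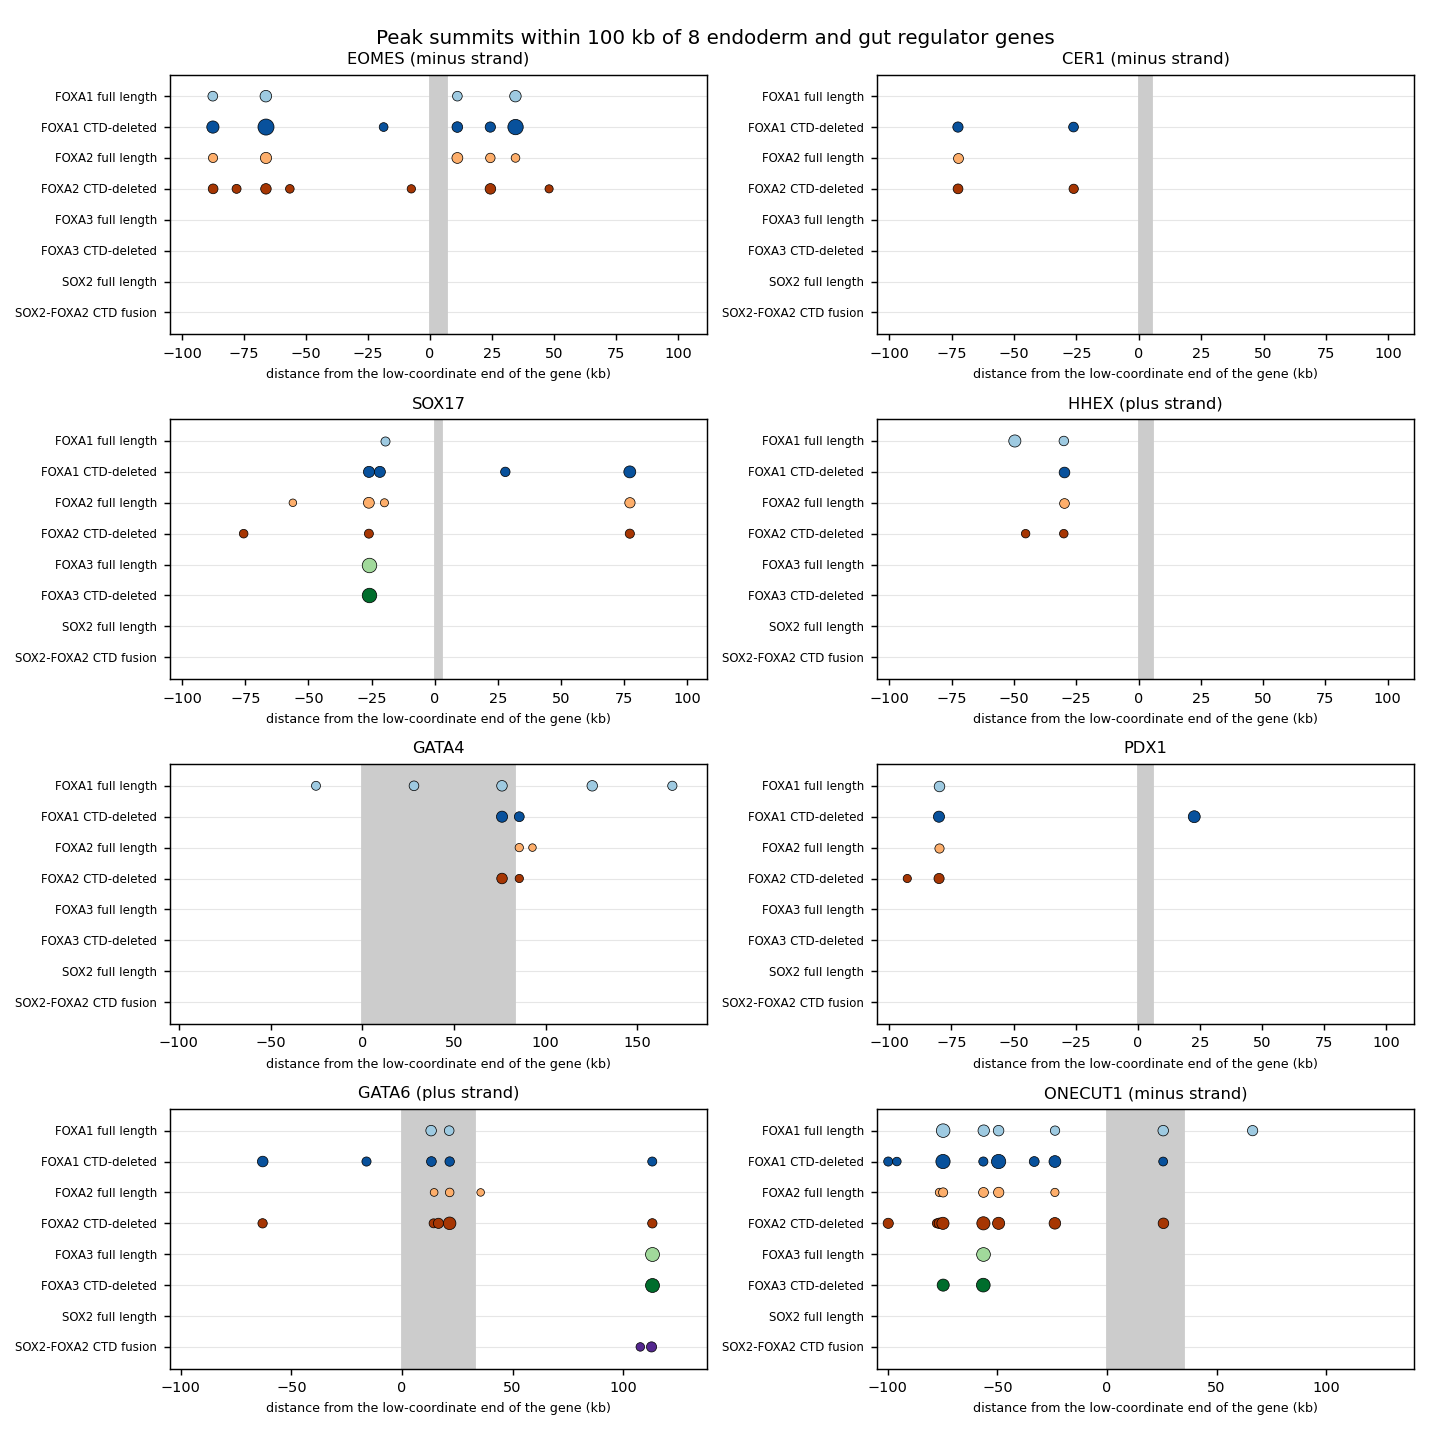
Peak summits around each gene, with distance in kb from the low-coordinate end of the gene span (grey band) on the x axis and the 8 lists as rows. Point area grows with the lower −log10 p of both replicates; columns of points, such as the 4 at 80.0 kb from PDX1, are sites that several lists share.

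Promoter sequence bears on 1 of these sites. The RefSeq promoter table (GRCh38.p14, 250 bases before to 50 after a gene start) has entries for 5 of the 8 genes: EOMES, GATA6, CER1, HHEX and ONECUT1. Of the 30 entries within 100 kb of any of the 8 genes, only 1 was touched by a peak, an alternative start of ATOSA, the gene beside ONECUT1. The site there was held by both FOXA2 lists and by no other list. The promoter is shown in lower case with the 147 bases that the peaks cover in capitals. The CER1 promoter is shown for contrast, because it is the only one of the 5 with a forkhead match, in capitals, and no list had a peak on it. Both are on the minus strand, at chr15:52678708-52679007 and chr9:14722684-14722983, written 5′ to 3′ along the gene.
ATOSA: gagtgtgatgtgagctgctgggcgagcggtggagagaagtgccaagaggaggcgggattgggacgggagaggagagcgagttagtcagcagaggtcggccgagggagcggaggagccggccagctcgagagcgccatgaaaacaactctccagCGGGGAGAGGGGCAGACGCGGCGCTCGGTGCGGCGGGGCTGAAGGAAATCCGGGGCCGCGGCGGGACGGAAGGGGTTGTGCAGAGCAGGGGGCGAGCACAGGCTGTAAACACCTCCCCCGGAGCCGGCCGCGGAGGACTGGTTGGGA
CER1: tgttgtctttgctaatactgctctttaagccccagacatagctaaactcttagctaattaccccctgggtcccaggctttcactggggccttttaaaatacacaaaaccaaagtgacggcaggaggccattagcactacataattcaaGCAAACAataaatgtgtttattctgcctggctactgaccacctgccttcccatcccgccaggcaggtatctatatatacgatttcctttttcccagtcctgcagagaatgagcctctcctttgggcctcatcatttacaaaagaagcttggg
The forkhead words searched, on both strands, were TGTTTAC, its variant TGTTTGC, and the further variant TATTTAC. The SOX words were ACAATGG and its variant ACAAAGG. ATOSA holds TGTTTAC on the opposite strand, read as GTAAACA at bases 258 to 264, inside the part covered by the peaks. CER1 holds TGTTTGC on the opposite strand, read as GCAAACA at bases 149 to 155. Of all 35116 promoter entries, 9.57% held a forkhead word and 8.25% a SOX word, and none of the 5 members' entries held a SOX word. A match is a stretch of letters and was not tested as a site. Sequence under the other peaks was not used here.

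EOMES, on chromosome 3 at 27715953 to 27722713, encodes the T-box factor that acts early in endoderm induction downstream of Nodal. Its 22 peaks formed 10 sites, and EOMES was the nearest protein-coding gene to each of the 10. A site 66.2 kb downstream, at 27649450 to 27650328, was held by all 4 FOXA1 and FOXA2 lists and was the strongest EOMES peak in 3 of them. Strength is given here as the −log10 p of a peak in each of its 2 replicates, in the order of the file, and since p depends on the unknown depth it is read within a list through the rank of the lower value. The values at this site were 7.51 and 5.53 for FOXA1 at full length, rank 8161 of 37532. For FOXA1 without its CTD they were 11.8 and 17.3, rank 1867 of 50539, the highest of all the FOXA1 CTD-deleted peaks at the 8 genes. FOXA2 gave 5.77 and 5.08 at full length, rank 2886 of 45076, which was also the highest of its list at these genes. After deletion FOXA2 gave 5.64 and 4.33, rank 12928 of 53415. The site was thus among the strongest 25% of peaks in each of the 4 lists. The strongest EOMES peak of FOXA2 without CTD was instead the one 17.6 kb upstream, with 4.39 and 7.81.

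A second EOMES site in the same 4 lists lay 87.5 kb downstream, at 27627774 to 27628851. Its replicate values were 3.53 and 4.48 for FOXA1, 6.32 and 9.20 for FOXA1 without CTD, 3.82 and 2.96 for FOXA2, and 3.53 and 12.6 for FOXA2 without CTD. Upstream of EOMES, 3 sites were each missing from 1 of the 4 lists. The nearest, 4.3 kb upstream at 27726164 to 27727507, was held by FOXA1 (7.35 and 3.48), FOXA1 without CTD (4.44 and 17.0) and FOXA2 at full length (4.71 and 5.03), and not by FOXA2 without CTD. It was the strongest FOXA2 full-length peak at the 8 genes that the CTD-deleted list lacked. A site 17.6 kb upstream lacked a FOXA1 full-length peak, and one 27.7 kb upstream lacked FOXA2 without CTD. The other 5 sites stood in 1 list each, 4 of them in the FOXA2 CTD-deleted list with a lower −log10 p of 2.09 to 2.81. No FOXA3, SOX2 or fusion peak fell within 100 kb.

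SOX17, on chromosome 8 at 54457935 to 54460892, encodes the SOX factor that marks definitive endoderm and is required for it. Its 14 peaks formed 7 sites. The main one lay 26.0 kb from the low-coordinate end, at 54431578 to 54432236, within the long non-coding RNA gene LOC105375841. It was held by 5 lists and not by FOXA1 at full length. FOXA1 without CTD gave 4.99 and 11.3, FOXA2 gave 4.71 and 5.95, and FOXA2 without CTD gave 2.80 and 14.7. Both FOXA3 lists held it as the same row, with 9.42 and 15.0, their strongest peak at the 8 genes, at rank 1808 of 6130 and 1947 of 6813. The 2 replicates of FOXA2 without CTD stood far apart here. A second site, 74.4 kb beyond the other end and 24.0 kb from RP1, was held by FOXA1 without CTD (5.95 and 6.95), FOXA2 (4.70 and 4.11) and FOXA2 without CTD (2.96 and 7.80). The single FOXA1 full-length peak near SOX17, 19.9 kb away, had values of 7.81 and 2.90 and overlapped a FOXA2 full-length peak with 2.02 and 2.20. The remaining 4 sites were held by 1 list each.

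GATA4 and GATA6 encode zinc finger factors of the endoderm that act together with FOXA proteins. GATA4, on chromosome 8 at 11676935 to 11760002, was the gene with the most FOXA1 full-length peaks after ONECUT1 and the only one of the 8 where FOXA1 lost more than 1 peak with its CTD, from 5 to 2, at the lists' own limits. With both lists held to the lower of their IDR limits the direction turned, to 0 and 2. FOXA2 had 2 peaks there in both forms. Its 7 sites included none held by 4 or more lists. A site within the gene, at 11752631 to 11753375, was held by FOXA1 (5.95 and 4.38), FOXA1 without CTD (4.99 and 9.59) and FOXA2 without CTD (4.39 and 7.81). Another, 2.6 kb past the high-coordinate end and within LINC02905, was held by FOXA1 without CTD (3.65 and 9.20), FOXA2 (2.38 and 2.20) and FOXA2 without CTD (2.17 and 3.96). The 4 peaks that FOXA1 had only at full length lay 25.2 kb before the gene, within it, 42.3 kb past it in FDFT1, and 86.0 kb past it in CTSB. Their lower −log10 p ran from 2.79 to 4.30.

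GATA6, on chromosome 18 at 22169589 to 22202528, was the only one of the 8 genes with peaks from FOXA1, FOXA2, FOXA3 and the fusion. Its 19 peaks formed 9 sites, 4 of them within the gene. The one at 22189850 to 22191402 was held by all 4 FOXA1 and FOXA2 lists. Its values were 3.45 and 6.34 for FOXA1, 3.23 and 7.38 for FOXA1 without CTD, 3.02 and 2.44 for FOXA2, and 8.15 and 6.78 for FOXA2 without CTD. Only the FOXA2 CTD-deleted peak ranked high in its list, at 4204 of 53415. Of the other sites within the gene, that at 22182420 to 22183334 was held by FOXA1 (4.35 and 4.38) and FOXA1 without CTD (3.53 and 5.32). The one at 22183583 to 22184232 was held by FOXA2 (3.84 and 1.74) and FOXA2 without CTD (2.80 and 3.96), and the last, at 22184918 to 22186559, by FOXA2 without CTD alone (4.39 and 3.96). A different site, 80.2 kb downstream at 22282042 to 22283044, was held by both CTD-deleted FOXA1 and FOXA2 lists, by FOXA3 and by the fusion, and by neither FOXA1 nor FOXA2 at full length. FOXA1 without CTD gave 2.87 and 6.51 there and FOXA2 without CTD gave 3.14 and 6.66. The FOXA3 row, the same in both lists, gave 8.61 and 12.3. The fusion gave 6.90 and 3.93, at rank 1389 of 7895 and an IDR of 0.367, a value above the limit of the other 7 lists. Its summit was at 22282373, and those of the FOXA lists at 22282695 to 22282731. The fusion thus shared this site by overlap of peaks and not by summits within 100 bp. Both CTD-deleted lists, and no full-length list, also shared a site 63.0 kb upstream, with 4.44 and 9.59 for FOXA1 and 10.2 and 3.13 for FOXA2.

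CER1, on chromosome 9 at 14717326 to 14722733, encodes a secreted antagonist of Nodal, BMP and Wnt signals made by the anterior endoderm. It had 5 peaks at 2 sites, both downstream and within ZDHHC21, and no FOXA1 full-length peak. The site at 72.5 kb was held by FOXA1 without CTD (4.06 and 7.92), FOXA2 (6.03 and 3.73) and FOXA2 without CTD (4.06 and 3.57). The site at 26.1 kb was held by both CTD-deleted lists, with 3.53 and 11.95 for FOXA1 and 3.57 and 3.13 for FOXA2. Both CTD-deleted lists thus held both sites, and of the full-length lists only that of FOXA2 held one.

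HHEX, on chromosome 10 at 92689955 to 92695647, encodes a homeobox factor of the anterior endoderm and liver bud. Its one shared site, 30.0 kb upstream at 92659542 to 92660895, was held by all 4 FOXA1 and FOXA2 lists. KIF11 was nearer to it, at 4.6 kb. Values were 4.15 and 3.32 for FOXA1, 4.49 and 18.5 for FOXA1 without CTD, 3.53 and 4.79 for FOXA2, and 2.42 and 4.15 for FOXA2 without CTD. The other 2 sites lay within KIF11 and were held by 1 list each. That of full-length FOXA1, 49.6 kb upstream, had 6.18 and 10.5 at rank 6768 of 37532 and was the strongest FOXA1 full-length peak at the 8 genes that the CTD-deleted list lacked.

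PDX1, on chromosome 13 at 27920000 to 27926313, encodes the homeobox regulator of pancreas and duodenum. Its shared site lay 80.0 kb from the low-coordinate end, at 27839208 to 27840778 within the long non-coding RNA gene PLUT. GSX1, at 45.3 kb, was the nearer protein-coding gene. The site was again in all 4 FOXA1 and FOXA2 lists. Values were 8.44 and 4.38 for FOXA1, 4.99 and 14.4 for FOXA1 without CTD, 3.02 and 4.08 for FOXA2, and 6.19 and 3.96 for FOXA2 without CTD. A peak 16.4 kb past the gene, at 27942416 to 27943525, was held by FOXA1 without CTD alone. With 5.95 and 6.95 it tied with the peak 74.3 kb from SOX17, which had the same values. These were the strongest FOXA1 CTD-deleted peaks at the 8 genes that the full-length list lacked.

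ONECUT1, on chromosome 15 at 52755053 to 52790336, encodes the cut-homeodomain factor HNF6 of liver and pancreas. It had the most peaks of the 8 genes, 30 at 11 sites, and 4 of the 11 sites held by 4 or more lists. The most widely shared was 56.4 kb downstream, at 52698345 to 52699253 within ATOSA, where all 6 FOXA lists had a peak. Values there were 6.31 and 5.33 for FOXA1, 2.96 and 14.2 for FOXA1 without CTD, 6.59 and 3.62 for FOXA2, and 7.53 and 13.2 for FOXA2 without CTD. The last was the strongest FOXA2 CTD-deleted peak at the 8 genes, at rank 3318 of 53415. The FOXA3 row, the same in both lists, gave 8.30 and 15.3.

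The next ONECUT1 site, 74.8 kb downstream at 52679709 to 52680579, was held by all 4 FOXA1 and FOXA2 lists and by FOXA3 without CTD (6.15 and 10.8). FOXA1 at full length had its strongest peak at the 8 genes there, with 8.87 and 8.10, rank 3011 of 37532. The values were 9.04 and 15.9 for FOXA1 without CTD, 5.13 and 2.97 for FOXA2, and 7.47 and 6.22 for FOXA2 without CTD. A site at 49.4 kb gave 14.4 and 4.38, 9.08 and 18.8, 7.596 and 4.11, and 6.19 and 21.1 in the same order of lists. One at 23.7 kb gave 8.72 and 3.17, 5.81 and 20.8, 3.38 and 2.14, and 5.51 and 7.04. These 4 sites ran along 1 side of the gene, the side of its 3′ end, and 3 of them lay within ATOSA. A site within ONECUT1 itself, at 52780419 to 52781139, was held by FOXA1 in both forms and by FOXA2 without CTD, with a lower value of 2.69 to 4.39. The FOXA2-only site at the ATOSA promoter printed above lay 76.4 kb downstream, with 2.22 and 2.46 at full length and 4.78 and 4.31 after deletion.

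**Figure D3:**
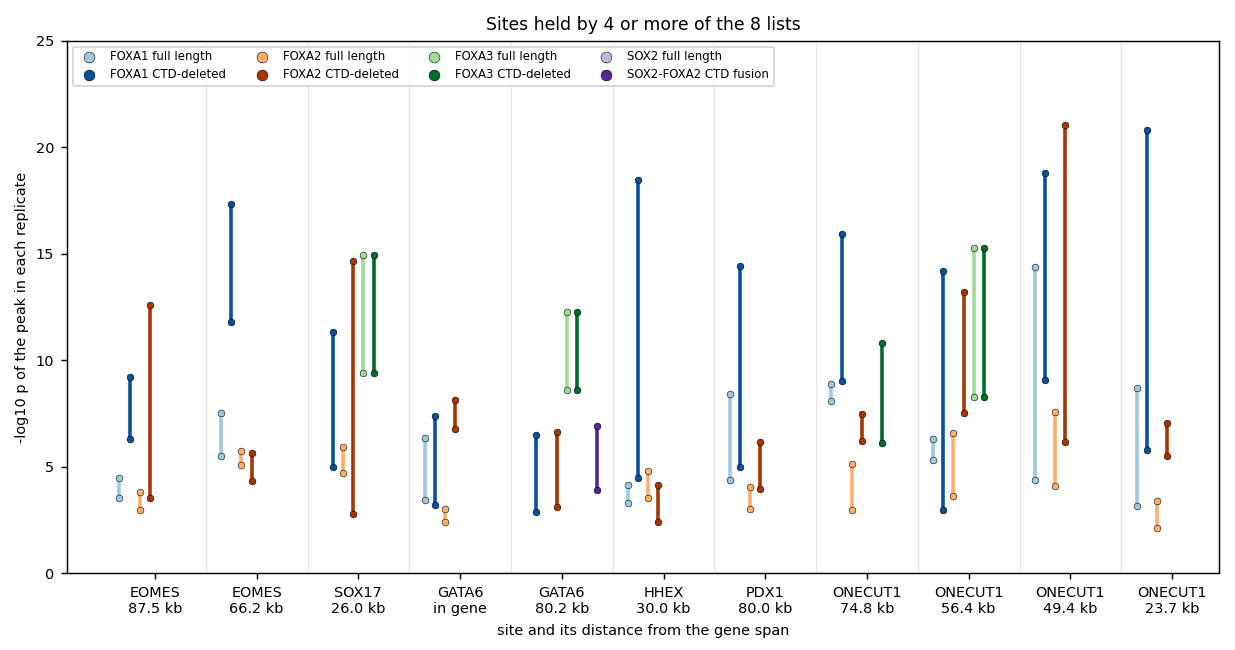
The 11 sites held by 4 or more lists, with the −log10 p of the peak in both replicates (points joined by a line) for each list that holds the site, labelled by gene and distance from the gene span in kb. The replicates of 1 list can stand far apart, for example 4.49 and 18.5 for FOXA1 without CTD at HHEX.

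The design asks what the CTD adds to the sites a FOXA protein occupies, so the members were compared within each pair. FOXA1 went from 21 peaks to 30 on CTD deletion at the lists' own limits, a ratio of 1.43 with a counting interval of 0.791 to 2.63 that includes no difference, against 1.35 over all peaks. It had more peaks after deletion at 6 of the 8 genes and fewer at 2, GATA4 and HHEX; of all genes 40.5% had more and 33.3% fewer. FOXA2 went from 22 to 31, a ratio of 1.41 (0.790 to 2.55) against 1.19 over all peaks. It had more at 6 genes, the same at GATA4 and fewer at SOX17, while 44.4% of all genes had more and 30.4% fewer. Both pairs had more peaks after deletion at 5 of the 8 genes, CER1, EOMES, GATA6, PDX1 and ONECUT1, and at 20.8% of all genes. FOXA3 had more at ONECUT1 alone and fewer at none, while 8.87% of all genes had more and 0.516% fewer. From SOX2 to the fusion there were more at GATA6 alone and fewer at none, against 35.1% and 0.165% of all genes. With both FOXA1 lists held to the lower of their IDR limits, FOXA1 kept 5 peaks at full length, at EOMES, HHEX and ONECUT1, against 30 after deletion. The ratio was 6, with a counting interval of 2.31 to 19.8 that left out 1 and held the 4.38 of all peaks. FOXA2 treated likewise kept 19 against 31, a ratio of 1.63 (0.893 to 3.06) against 1.70 over all peaks. With each pair cut to equal numbers of its strongest peaks, FOXA1 had 21 and 21, so the higher number after deletion was not seen, and FOXA2 had 22 and 27, a ratio of 1.23.

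Peaks of a pair were called shared at an overlap of 1 bp. Of the 21 FOXA1 full-length peaks, 14 overlapped a CTD-deleted peak, 66.7% (43.0 to 85.4) against 56.0% of all FOXA1 full-length peaks. In the other direction 14 of 30 did, 46.7% (28.3 to 65.7) against 41.7%. For FOXA2 these were 16 of 22, 72.7% (49.8 to 89.3) against 51.3%, and 16 of 31, 51.6% (33.1 to 69.8) against 43.2%. When summits had to lie within 100 bp, the full-length shares were 47.6% for FOXA1 and 68.2% for FOXA2. Between factors, 12 of the 21 FOXA1 full-length peaks overlapped a FOXA2 full-length peak, 57.1% (34.0 to 78.2) against 47.2% of all, and 12 of the 22 FOXA2 peaks a FOXA1 peak, 54.5% (32.2 to 75.6) against 39.5%. Without the CTD, 20 of 30 FOXA1 peaks overlapped a FOXA2 peak, 66.7% (47.2 to 82.7) against 45.7%, and 20 of 31 FOXA2 peaks a FOXA1 peak, 64.5% (45.4 to 80.8) against 43.4%. All 4 FOXA3 CTD-deleted peaks overlapped a peak of both other CTD-deleted lists, against 69.2% for FOXA1 and 78.5% for FOXA2 over the whole list. For FOXA1 and FOXA2 each of these 8 shares was higher at the 8 genes than over all peaks. The counting interval left out the value over all peaks only for the 2 shares between the CTD-deleted lists. Those 2 shares count the same 20 overlaps from either side, so they are 1 observation. Peaks near 1 gene are not independent of each other, and other overlap rules were not applied to the shares between factors. In the FOXA3 pair, 3 of 3 full-length peaks were shared against 94.4% of all and 3 of 4 CTD-deleted peaks against 84.9%, through the identical rows. In the combined lists SOX2 had no peak to share, against 76.7% of its list found in the fusion list. There 0 of 2 fusion peaks overlapped a SOX2 peak, against 13.6%.

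Peaks at the 8 genes were of middling rank in most lists, with the median of full-length FOXA2 nearer the strong end. Rank is given as a percentage of the list, 0 being the strongest. The median was 46.0% for FOXA1 and 51.2% for FOXA1 without CTD, and 25.6% and 41.6% for FOXA2. Of the FOXA2 full-length peaks, 10 of 22 were in the strongest 25% of the list and 3 in the weakest 25%. The binomial interval of their median ran from 15.7% to 52.8%, and ranked by the second replicate value the median was 39.9%. For FOXA3 the median was 38.7% at full length and 38.2% after deletion. Peak widths were close to those of the lists, with a median of 745 bases against 695 for FOXA1 and 525.5 against 574 for FOXA2. The replicates of FOXA1 without CTD differed in 1 direction: the second value was the higher in 30 of 30 peaks at the 8 genes, with medians of 4.26 and 9.23, and in 92.5% of that list's peaks. Its part in the comparison of the FOXA1 pair was not tested.

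**Figure D4:**
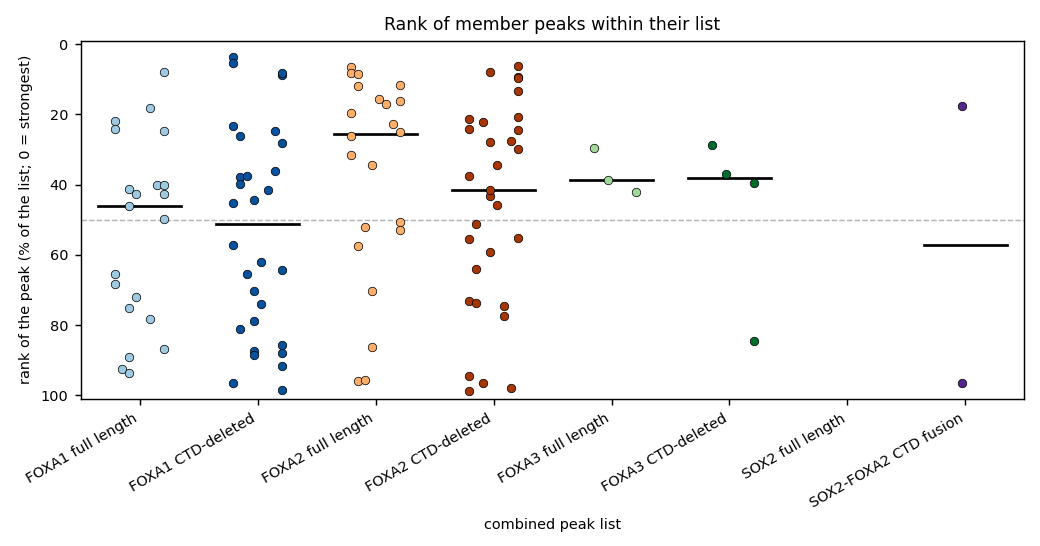
Rank of each peak at the 8 genes as a percentage of its list, with 0 (strongest) at the top; points are peaks, bars the median, and the dashed line the middle of a list. The median of FOXA2 at full length is drawn at 25.6%, and every FOXA1 and FOXA2 list spans nearly the full range.

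SOX2 and the fusion were compared to ask whether the FOXA2 CTD brings SOX2 to these genes. In the combined lists SOX2 had 0 peaks and the fusion 2, both downstream of GATA6. The one at the 80.2 kb site made 1 of 2 that overlapped a FOXA2 CTD-deleted peak, against 17.0% of all fusion peaks, and 0 of 2 overlapped a FOXA2 full-length peak, against 16.6%. The other, at 74.8 kb, had 2.41 and 3.29, an IDR of 0.828 and rank 7628 of 7895. Neither remained at the IDR limit of the SOX2 list. The nearest combined SOX2 peak to GATA6 was 3076 kb away. Of the 7 genes with no fusion peak in the window, SOX17 had the nearest one, 164.2 kb away. The lists of the first replicate alone were longer and weaker. There SOX2 had 7 peaks at 4 genes (42.1% of all genes had one), 4 of them at GATA6, and the fusion had 20 peaks at 8 of 8 genes (79.3% of all genes), 8 of them at GATA6. The SOX2 peaks had a fold enrichment, the authors' ratio over local background, of 2.10 to 3.503 and those of the fusion of 2.01 to 5.12. At the 80.2 kb site SOX2 had a fold enrichment of 2.50 and a −log10 p of 2.42, and the fusion 5.06 and 6.94. The −log10 q was 0 for this SOX2 peak and at most 0.121 for the other 6, and 2.88 for the fusion peak. The strongest first-replicate fusion peak at the 8 genes, 28.1 kb upstream of GATA6, reached 5.12 and 7.36. A first-replicate SOX2 peak with 2.10 and 1.78 overlapped it. Each of the 7 SOX2 peaks of the first replicate overlapped a fusion peak of the first replicate. The share over all first-replicate peaks was not counted.

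A wider list of 30 endoderm and gut genes was counted the same way, from the Nodal pathway (NODAL, TDGF1, LEFTY1, LEFTY2, FOXH1 and SMAD genes) to factors of liver, pancreas and intestine (HNF4A, PROX1, PTF1A, CDX2 and others). All 30 were found, TDGF1 under the symbol CRIPTO. A FOXA1 peak was near 24 of the 30 at full length (83.4% of all genes) and 26 after CTD deletion (82.2%), and a FOXA2 peak near 26 (85.0%) and 28 (86.4%). FOXA3 peaks were near 8 in both lists (34.7% and 38.9%), SOX2 peaks near 1, TDGF1 (1.46%), and fusion peaks near 8 (35.5%). The median was 3 peaks per gene in each FOXA1 and FOXA2 list, equal to that of all protein-coding genes. On deletion of the FOXA1 CTD the total went from 103 to 100, with more peaks at 12 genes and fewer at 10, where 40.5% and 33.3% of all genes had more and fewer. The FOXA2 total went from 103 to 120, with more at 17 and fewer at 7, against 44.4% and 30.4%.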

How the data were processed

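Flag ChIP-seq peaks from 8 groups of U2OS cells with 2 replicates each were used. The submitters' processing notes name FastQC 0.10.1, Trim Galore, Bowtie2 2.4.4, SAMtools 0.1.18, MACS2, deepTools 2.4.1 and the build hg38, with no settings. Of 14 deposited lists 10 were used, and the other 4 were copies. The 8 combined lists have the 20-column layout of the IDR program. Their deposited values are an IDR score (125 times log2 of 1 over the IDR), the summit, and a −log10 p for either replicate, in columns that carry no replicate number. The first-replicate lists of SOX2 and the fusion also give fold enrichment, a ratio computed by the authors, and −log10 p and q. These are the authors' values and served to rank and filter peaks. Depth is unknown.

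Peaks were assigned to the 8 genes by summit within 100 kb of the span in the RefSeq table of GRCh38.p14, and the same was done for all 19970 protein-coding genes as background. Peaks were shared at an overlap of 1 bp. Ranks follow the lower −log10 p of both replicates, with ties by position. Intervals are exact (Clopper-Pearson, 95%). Computation used Python 3.11.15 with SciPy 1.17.1 and was tested on simulated peaks. The peaks named are, for each gene, the strongest of a list, those held by 4 or more lists, those within the gene, and the strongest of a pair found in 1 list only; some others are named to account for each gene's sites. The genes and lists were chosen with earlier results of these data known. Alternatives were a window of 50 or 250 kb, stricter limits of IDR or p, equal peak numbers, the nearest gene, merged peaks, the first replicate alone, other overlaps and other ranks.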

Additional observations from a re-analysis of the deposited data

Results flagged for a closer look

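Peak numbers at SOX17 and HHEX changed in opposite directions with CTD deletion in the FOXA1 and FOXA2 pairs. At SOX17, FOXA1 went from 1 to 4 peaks and FOXA2 from 4 to 3, so the changes differ by 4 peaks. At HHEX, FOXA1 went from 2 to 1 and FOXA2 from 1 to 2, so the changes differ by -2. Each number comes from 1 list, and the difference was not tested. Changes in either direction were common: 40.5% of all protein-coding genes had more FOXA1 peaks after deletion and 33.3% fewer. For FOXA2 these were 44.4% and 30.4%. The share of all genes with opposite changes in the 2 pairs was not counted, so these genes cannot be called unusual. The lists of a pair have different IDR limits. At the stricter limit of each pair FOXA1 near SOX17 had 0 peaks with the CTD and 4 without it, and FOXA2 had 3 in both forms. Near HHEX FOXA1 then had 1 in both forms and FOXA2 had 1 and 2.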

How the results depend on the processing

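The 35 results gave 215 values under other settings. Of these, 149 lay near the reported one (a count within 1.5 times it, another value inside its counting interval) and 66 moved further. The cause was not tested for any of them, except that a stricter limit or a narrower window leaves fewer peaks by construction. Tied IDR scores, named below for FOXA3, are the other exception. Lists are given as FOXA1, FOXA1 without CTD, FOXA2, FOXA2 without CTD, FOXA3, FOXA3 without CTD, and the fusion.

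An IDR of at most 0.01 left 0, 19, 0 and 4 peaks at the 8 genes in the FOXA1 and FOXA2 lists, at 0 genes for both full-length lists and 2 for FOXA2 without CTD, and 0 fusion peaks. Over whole lists it left 3438 and 26826 FOXA1 peaks and 0 and 6523 of FOXA2, so the 0 of full-length FOXA2 was set by the list. It left 22 merged sites, 0 of them in 4 or more lists. Requiring p of 1e-05 or lower in each replicate left 5, 8, 1 and 5 peaks at 3, 4, 1 and 2 genes, a FOXA2 ratio of 5, and 0 fusion peaks. The counting interval of this FOXA2 ratio ran from 0.559 to 236. Over all peaks the ratio was 2.80 for FOXA2, from 3124 and 8739 peaks, and 1.60 for FOXA1. The stricter IDR limit of a pair left 5 FOXA1 full-length peaks at 3 genes, a ratio of 6, and 13.3% of the FOXA1 CTD-deleted peaks shared (this share was added after seeing the data). The whole FOXA1 full-length list then fell from 37532 to 11548 peaks, while the CTD-deleted list kept its 50539. The share over all peaks at this limit was not computed. The same limit left 0 fusion peaks, as did equal numbers of the strongest peaks, which gave ratios of 1 for FOXA1 and 1.23 for FOXA2. Within 50 kb there were 19, 13 and 15 peaks in the FOXA1 CTD-deleted and both FOXA2 lists, 1 in each FOXA3 list at 1 gene, and 0 of the fusion, and 100% of the FOXA3 CTD-deleted peaks were shared. Within 250 kb there were 54, 60, 48, 61, 6, 7 and 6 peaks, at 6 genes for each FOXA3 list and 3 for the fusion. With each peak given only to its nearest protein-coding gene, 12, 17, 12 and 17 FOXA1 and FOXA2 peaks remained, at 4 and 5 genes for FOXA2, and 2 of FOXA3 without CTD. For each list the share of all genes with a peak was computed at 100 kb and the list's own limit only. The numbers of genes under other windows, limits or assignments therefore have no background here and cannot be read as high or low. Without the rows shared by the FOXA3 lists, 0 peaks at 0 genes remained at full length and 0% of the CTD-deleted peaks were shared. With them left out of both lists, added after seeing the data, no ratio could be given. Nor could one be given for SOX2 and the fusion, where SOX2 had 0 peaks, or for FOXA1 and FOXA2 at an IDR of at most 0.01. The first replicate alone gave 7 SOX2 peaks at 4 genes and 20 fusion peaks at 8. The median rank of the FOXA3 full-length peaks was 25.9% by IDR score and 48.1% by the first replicate value. All 3 of these peaks had the highest IDR score of the list, 1000. The 25.9% therefore follows position among tied peaks and is not a rank of strength. The median rank of FOXA2 at full length was 28.9% by IDR score and 39.9% by the second replicate value. No paired analysis was possible because each group has 1 combined list and its replicate values carry no replicate number. Leaving out a replicate was possible only for SOX2 and the fusion.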

Other observations

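The genes named here were picked from the 30 further endoderm and gut genes after their values were seen. For them the share of all protein-coding genes with as many peaks was not computed. The median over 8 lists was 13 for all protein-coding genes. Among the 30, NODAL had the most peaks. It had 10 FOXA1 and 8 FOXA2 peaks at full length, 6 and 11 after CTD deletion, 7 in each FOXA3 list and 2 of the fusion, 51 over all lists. HNF4A, the nuclear receptor of liver and gut, followed with 50, of which 14 were of full-length FOXA1. At the other end PTF1A and MNX1, which act in the pancreas, had 1 peak each, in the FOXA2 CTD-deleted list in both cases.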
